A study of Mus musculus with 2 samples.

Results

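The 9 genes described here are known for resting, circulating T cells: the transcription factor genes Tcf7, Lef1, Satb1, Bach2, Id3 and Klf2, and the receptor genes S1pr1, Ccr7 and Il7r. They were found by symbol among the 32285 genes of the count tables, where each symbol had 1 row. Their RNA was followed in cells that resembled CD8 T, CD4 T, regulatory T and NK cells by marker UMIs (unique molecular identifiers, each of which marks a captured transcript).

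The cells were CD45-positive cells, that is leukocytes, sorted from tumors of mice labelled WT that bore B16-F10, a mouse melanoma line. The treated mice received DOPAC, which is 3,4-dihydroxyphenylacetic acid and arises when dopamine is broken down, and the others vehicle, which the labels call Control. By the design 4 mice entered each group, but the cells of a group form 1 library and are not assigned to mice. No difference below therefore has a replicate check, and none was tested. Dose, schedule, strain, sex and age are not given in the labels, and the protocol text names colon tissue where the tissue label and design name tumor.

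A naive T cell is one that has left the thymus and has not yet met its antigen. TCF-1 and LEF-1, the products of Tcf7 and Lef1, are related DNA-binding proteins that act in T-cell development and in keeping naive and memory T cells able to renew. KLF2, a zinc finger factor, turns on S1pr1, whose product is the receptor for sphingosine 1-phosphate that lets T cells leave lymphoid organs. CCR7 draws T cells and dendritic cells into lymph nodes, and the interleukin-7 receptor keeps naive and memory T cells alive. After activation, effector T cells commonly hold less of these RNAs, while exhausted T cells carry checkpoint receptors such as PD-1.

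After quality filters and removal of likely doublets, 9225 DOPAC and 8105 Control cells remained, with a median of 3587.0 and 9320.0 UMIs per cell. The classes held 2640 and 597 CD8 T cells, 112 and 223 CD4 T cells, 58 and 119 regulatory T cells, and 219 and 576 NK cells in DOPAC and in Control. Median depths in these classes were 2946.0 to 5406.0 UMIs in DOPAC and 5944.5 to 14477.0 in Control. The libraries shared 32 cell barcodes. Cd3d, Cd3e and Cd3g RNA was present in every T class and, by the gate, at 0 in NK cells. RNA of a myeloid set of 4 genes (Lyz2, Csf1r, C1qa and C1qb) summed to 84.0 to 161 CPM (counts scaled to the total of the class) in the T classes of DOPAC and 309 to 333 CPM in those of Control, and its part in the results was not tested.

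The members lie on 6 chromosomes of GRCm38. Klf2 (ENSMUSG00000055148) spans chr8:72319033-72321656 on the plus strand and Satb1 (ENSMUSG00000023927) spans chr17:51736187-51833290 on the minus strand. Their upstream sequences are shown because Klf2 had the largest difference between the libraries in CD8 T cells, and because Satb1, alone of the pair, held one of the motifs searched. They are RefSeq promoter entries of build GRCm38.p6, printed 5′ to 3′ on the strand of the gene, with a motif match in capitals. The Klf2 window is chr8:72318812-72319032 and the Satb1 window is chr17:51833291-51833540.
Klf2: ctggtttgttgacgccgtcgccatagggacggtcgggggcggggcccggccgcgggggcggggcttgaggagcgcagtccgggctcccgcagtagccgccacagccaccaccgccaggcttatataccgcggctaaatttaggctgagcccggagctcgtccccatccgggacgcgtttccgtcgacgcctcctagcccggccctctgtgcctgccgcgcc
Satb1: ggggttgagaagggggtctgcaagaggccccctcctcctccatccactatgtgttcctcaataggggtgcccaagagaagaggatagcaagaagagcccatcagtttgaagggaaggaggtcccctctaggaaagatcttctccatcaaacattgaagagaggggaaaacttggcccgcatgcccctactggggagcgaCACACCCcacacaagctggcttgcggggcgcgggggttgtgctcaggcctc

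Entries were found for 7 of the 9 members, and the 250 bases before the start of each entry were searched on both strands for TGTTTAC (a FOXO motif), CTTTGAT (a TCF and LEF motif) and CACACCC (a KLF motif). The only matches were CACACCC in Satb1, in capitals above, and its reverse complement in Id3. Not all of these windows lie upstream of the gene as GENCODE draws it: those of Tcf7, Lef1 and Satb1 lie wholly before it and that of Klf2 all but 29 bases, which are not printed, whereas those of Id3, Il7r and Bach2 lie wholly inside it. The Tcf7 window holds 5′ exon sequence of a longer Tcf7 transcript, so its lack of a match does not describe the promoter of that transcript. Among 32851 promoters of the table, 6.93% held the KLF motif, 3.17% the FOXO motif and 3.21% the TCF and LEF motif. A match is a description of letters and not of binding.

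All 9 genes were lower in DOPAC than in Control CD8 T cells. Each was at least 2-fold lower, where 12.3% of the 12421 genes with at least 20 UMIs over both libraries were that much lower. The median log2 ratio of DOPAC over Control was -3.43 over the 9 genes, with a range of -4.57 to -2.40, and -0.07 over all genes compared. Red-cell RNA also differed between the libraries. Hba-a1 and Hbb-bs, which encode haemoglobin chains, summed to 0.701 CPM in DOPAC and 796 CPM in Control CD8 T cells, and to 0 CPM in DOPAC and 31.4 CPM in Control CD4 T cells. In macrophages they summed to 1.31 and 456 CPM, and in mature dendritic cells to 0 and 555 CPM, in DOPAC and Control. Without the cells that held a UMI of either gene, 2629 DOPAC and 462 Control CD8 T cells were left. In these all 9 genes were at least 2-fold lower, at log2 ratios of -4.76 to -2.52. The part of blood cells in the results was not tested. In each comparison below, levels are CPM of the UMIs summed over the cells of a class, with exact Poisson 95% intervals that cover counting error only.

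Tcf7 (ENSMUSG00000000782, chr11:52252371-52283014) was at 11 CPM (9.52 to 12.7) in DOPAC CD8 T cells and 207 CPM (196 to 219) in Control CD8 T cells, lower by 18.8-fold (16.1 to 22.0). Lef1 (ENSMUSG00000027985, chr3:131110471-131224356), its closest relative, was at 40.9 CPM (38.0 to 44.1) in DOPAC against 662 CPM (642 to 683) in Control. That was 16.2-fold lower (14.9 to 17.6), and the intervals of the folds of the 2 relatives overlapped. Klf2 was at 13.3 CPM (11.6 to 15.2) in DOPAC against 317 CPM (303 to 332) in Control, lower by 23.8-fold (20.7 to 27.4). The library with the high level was Control for each of these genes, and the intervals of the libraries were far apart.

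Of the other transcription regulators, Satb1 and Bach2 were lower by smaller folds, while the interval of the Id3 fold overlapped those of Tcf7 and Lef1. Satb1, which organises chromatin in developing T cells, was at 225 CPM (218 to 232) in DOPAC against 1405 CPM (1375 to 1436) in Control, lower by 6.25-fold (6.01 to 6.49). Bach2 (ENSMUSG00000040270, chr4:32238804-32586108), a repressor that restrains effector genes, was at 226 CPM (219 to 233) in DOPAC against 1194 CPM (1167 to 1222) in Control, lower by 5.28-fold (5.08 to 5.49). Id3 (ENSMUSG00000007872, chr4:136143497-136145755), an inhibitor of E proteins linked to memory T cells, was at 1.87 CPM (1.28 to 2.64) in DOPAC against 20.6 CPM (17.1 to 24.6) in Control. Its 11-fold lower level (7.42 to 16.8) rested on 32 and 123 UMIs, the fewest of the 9 genes in this class.

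The 3 receptor genes were also lower in DOPAC CD8 T cells. S1pr1 (ENSMUSG00000045092, chr3:115710433-115715072) was at 7.77 CPM (6.5 to 9.21) in DOPAC against 110 CPM (101 to 118) in Control, lower by 14.1-fold (11.7 to 17.1). Il7r (ENSMUSG00000003882, chr15:9505788-9530176) was at 30.5 CPM (28.0 to 33.3) in DOPAC against 278 CPM (265 to 292) in Control, lower by 9.11-fold (8.26 to 10.1). Ccr7 (ENSMUSG00000037944, chr11:99144196-99155077) was at 44.6 CPM (41.5 to 47.8) in DOPAC against 312 CPM (298 to 327) in Control, lower by 7.01-fold (6.44 to 7.63). Over all CD8 T cells the interval of the S1pr1 fold lay above that of Ccr7, but within each of the 2 groups of CD8 T cells described below the intervals overlapped.

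**Figure D1:**
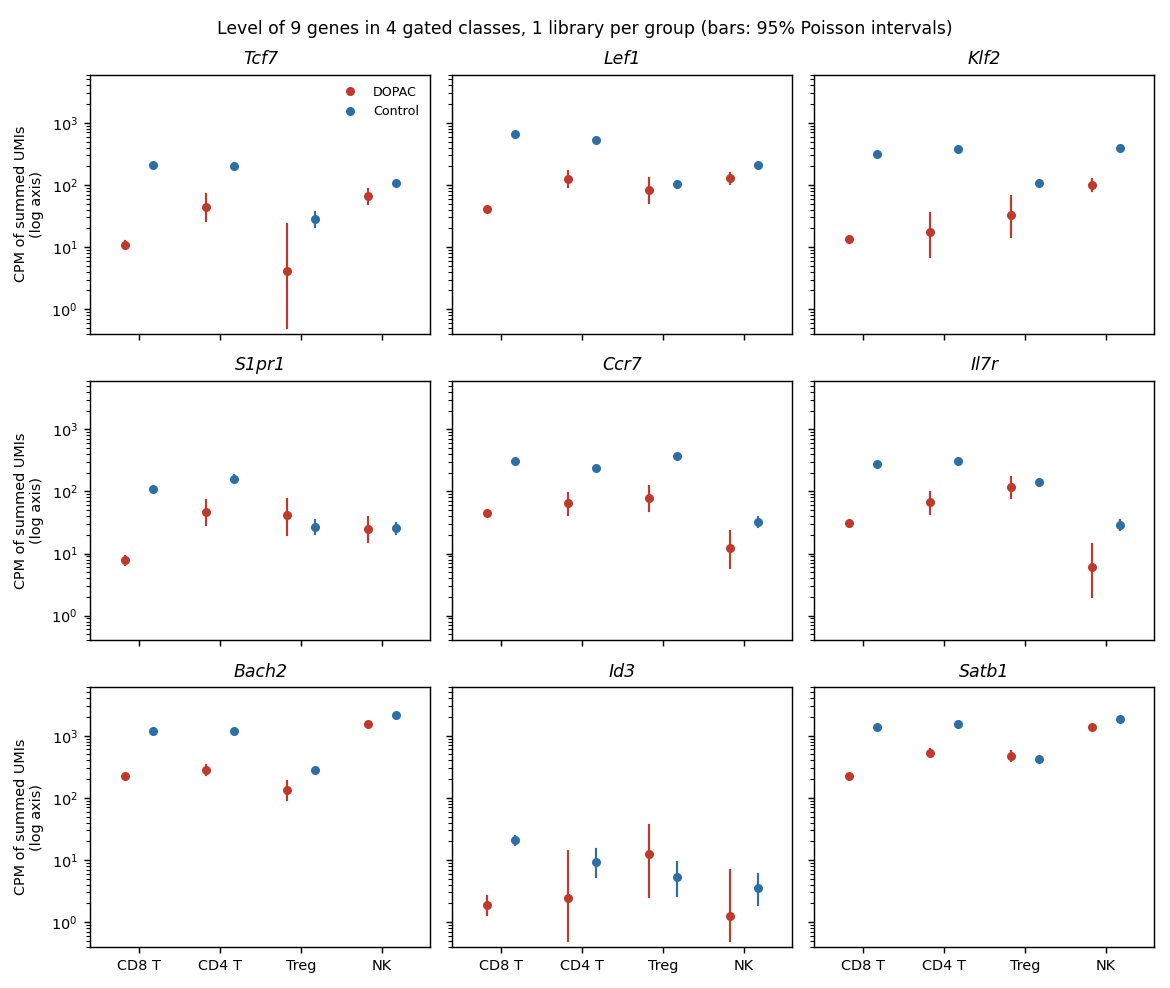
Level of each of the 9 genes in 4 classes, as CPM of summed UMIs on a log axis, with DOPAC (red) left of Control (blue) and bars for 95% Poisson intervals, which end near the lower edge where they reach below it. All 9 DOPAC levels in CD8 T cells lie below the Control levels, while Satb1 in regulatory T cells is at 478 CPM in DOPAC and 427 CPM in Control.

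In CD4 T cells, 8 of the 8 genes with at least 20 UMIs were at least 2-fold lower in DOPAC, where 9.96% of all genes were. Their median log2 ratio was -2.05, against 0.04 over all genes. Klf2 again differed most, at 17.3 CPM (6.95 to 35.6) in DOPAC against 386 CPM (357 to 416) in Control, lower by 22.3-fold (10.8 to 55.7) on 7 DOPAC UMIs. For the other 7 genes the fold lay between 2.85 for Satb1, at 536 and 1527 CPM in DOPAC and Control, and 4.6 for Il7r, at 66.7 and 307 CPM. Stricter gates, which left 41 DOPAC CD4 T cells, moved the log2 ratio of S1pr1 to -3.11 and that of Ccr7 to -1.01, against -1.71 and -1.82. Tcf7 was at 44.5 CPM (26.4 to 70.3) in DOPAC against 199 CPM (179 to 222) in Control, Lef1 at 126 and 533 CPM, S1pr1 at 46.9 and 161 CPM, and Ccr7 at 64.2 and 234 CPM. Control CD4 T and CD8 T cells had overlapping intervals for Tcf7, Il7r and Bach2, whereas in DOPAC the CD4 T level lay above the CD8 T level for Tcf7 and Il7r. Id3 had 1 UMI in DOPAC and 16 in Control and was given no fold.

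Regulatory T cells, gated by Foxp3 RNA, showed a divided set. Of 8 genes with enough UMIs, 4 were at least 2-fold lower in DOPAC, where 13.1% of all genes were, and the median log2 ratio of the 8 was -0.66. Ccr7 was at 79.0 CPM (47.6 to 123) in DOPAC against 365 CPM (339 to 391) in Control, lower by 4.61-fold (2.93 to 7.71). Klf2 was at 33.3 CPM (14.4 to 65.6) in DOPAC against 107 CPM (93.1 to 122) in Control, lower by 3.2-fold (1.60 to 7.51). Tcf7, with 1 UMI in DOPAC and 59 in Control, and Bach2, 2.12-fold lower (1.49 to 3.13), no longer passed 2-fold when likely doublets were kept, at log2 ratios of -0.60 and -0.66. Bach2 was also within 2-fold with stricter gates (-0.81) and with the 5% mitochondrial limit (-0.88). Satb1 was at 478 CPM (395 to 574) in DOPAC against 427 CPM (400 to 456) in Control, a ratio of 1.12 (0.913 to 1.36). S1pr1 was at 41.6 CPM (19.9 to 76.5) and 27.1 CPM (20.5 to 35.1), Lef1 at 83.2 CPM (50.8 to 128) and 104 CPM (90.4 to 118), and Il7r at 116 CPM (77.4 to 168) and 140 CPM (124 to 157) in DOPAC and Control, with overlapping intervals. Each of these 4 genes changed sign in regulatory T cells under at least 1 alternative, S1pr1 for example to -0.49 when every cell weighed the same. Id3 had 3 UMIs in DOPAC and 11 in Control and was given no fold.

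In NK cells, where several of these genes are also active, 3 of 8 genes compared were at least 2-fold lower in DOPAC, where 6.86% of all genes were, with a median log2 ratio of -0.69 over the 8. Klf2 was at 100 CPM (79.4 to 124) in DOPAC against 389 CPM (370 to 410) in Control, lower by 3.89-fold (3.11 to 4.93). Ccr7 was at 12.3 and 32.6 CPM and Il7r at 6.17 and 28.8 CPM in DOPAC and Control, on 10 and 5 DOPAC UMIs. These calls depended on the gate: Il7r was at a log2 ratio of -0.90 with likely doublets kept and -0.84 with a wider NK gate, and Ccr7 at -0.56 with stricter gates. S1pr1 was at 24.7 CPM (15.1 to 38.1) in DOPAC NK cells and 25.6 CPM (20.8 to 31.3) in Control NK cells, a fold of 0.964 (0.564 to 1.57). Its log2 ratio was -0.90 with stricter gates and 0.60 when every cell weighed the same. Tcf7 was at 65.4 CPM (49.0 to 85.6) in DOPAC against 107 CPM (96.8 to 118) in Control, and Lef1 at 128 CPM (105 to 156) in DOPAC against 208 CPM (193 to 223) in Control, both within 2-fold. Bach2, at 1550 and 2195 CPM, and Satb1, at 1390 and 1851 CPM in DOPAC and Control, were within 2-fold too. Id3 had 1 UMI in DOPAC and 13 in Control NK cells and was given no fold.

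T cells outside the 3 T classes, 1413 in DOPAC and 803 in Control, had all 9 genes at least 2-fold lower in DOPAC, where 9.01% of all genes were, at a median log2 ratio of -1.47.

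**Figure D2:**
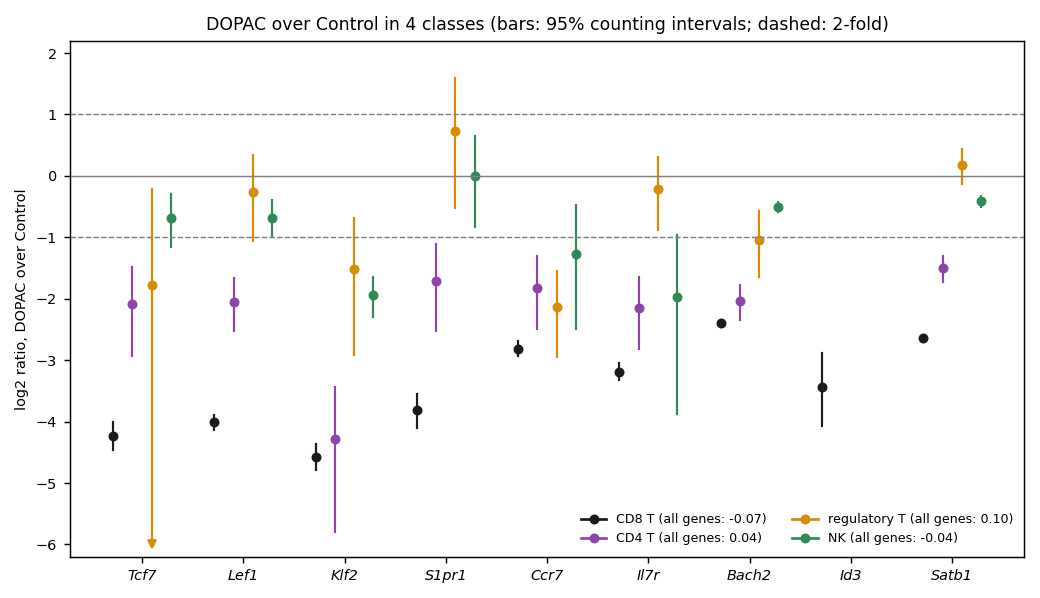
The log2 ratio of DOPAC over Control for each gene in CD8 T, CD4 T, regulatory T and NK cells, with bars for 95% counting intervals, a triangle where an interval runs past the axis, and dashed lines at 2-fold. CD8 T ratios run from -4.57 to -2.40, whereas in regulatory T and NK cells 4 of 8 and 5 of 8 ratios lie within 2-fold.

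The order of the 4 classes also differed by library. In Control, Lef1 was highest in CD8 T cells (662 CPM), then CD4 T (533 CPM), NK (208 CPM) and regulatory T cells (104 CPM), with no overlap between neighbours. Tcf7 had the same order, and only its CD8 T and CD4 T intervals overlapped. In DOPAC, NK cells ranked first for both genes, and their intervals overlapped those of CD4 T cells. DOPAC CD8 T cells ranked last of the 4 classes for Lef1, Klf2, S1pr1 and Satb1, and their intervals lay below the next class for all of these but Klf2. Control NK cells ranked first for Klf2, Bach2 and Satb1, although for Klf2 their interval overlapped that of CD4 T cells. Control CD4 T cells ranked first for S1pr1 and Il7r, and Control regulatory T cells for Ccr7. When every cell weighed the same, Control CD4 T cells ranked first for Tcf7, Klf2 and Satb1 instead, and DOPAC CD4 T cells for Ccr7. Outside the lymphocytes, Ccr7 in mature dendritic cells, which use it to reach lymph nodes, was at 1904 CPM (1745 to 2074) in DOPAC against 2005 CPM (1958 to 2052) in Control. Il7r and Id3 in macrophages were at 129 and 79.5 CPM in DOPAC, above 78.7 and 46.6 CPM in Control.

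To show how the genes varied within CD8 T cells, the class was divided by other genes. Cells with at least 2 UMIs of the checkpoint receptor genes Pdcd1, Havcr2 and Lag3 together made up 62.7% (60.8 to 64.5), or 1654 cells, in DOPAC and 19.3% (16.2 to 22.7), or 115 cells, in Control. The other CD8 T cells, below that limit, numbered 986 in DOPAC and 482 in Control, at median depths of 4063.5 and 7589.5 UMIs. Cycling CD8 T cells, with at least 2 UMIs of Mki67 and Top2a together, made up 35% (33.2 to 36.9) of the class in DOPAC and 11.2% (8.8 to 14) in Control. The groups thus drew their CD8 T sums from different mixtures. Median depths of the checkpoint-positive cells were 6482.5 UMIs in DOPAC and 13290.0 in Control. The limit is a raw count that shallower cells reach less easily, so the cells below it need not be alike in the libraries.

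Within the CD8 T cells below the checkpoint limit all 9 genes were at least 2-fold lower in DOPAC, where 10.4% of all genes were, at a median log2 ratio of -3.12. Klf2 was at 18.2 CPM (14.6 to 22.5) in DOPAC against 432 CPM (412 to 452) in Control, lower by 23.7-fold (19.1 to 29.7). Lef1 was at 64.2 CPM (57.2 to 71.8) in DOPAC against 900 CPM (871 to 929) in Control, lower by 14-fold (12.5 to 15.8). Tcf7 was at 22.7 CPM (18.6 to 27.3) in DOPAC against 277 CPM (261 to 294) in Control, lower by 12.2-fold (10 to 15.1). Among the receptor genes, Il7r, at 38.6 and 374 CPM in DOPAC and Control, was lower by 9.68-fold (8.3 to 11.3). S1pr1, at 16.2 and 142 CPM, was lower by 8.81-fold (6.94 to 11.3), and Ccr7, at 45.3 and 284 CPM, by 6.28-fold (5.43 to 7.3). Satb1 was at 327 CPM in DOPAC and 1925 CPM in Control, and Id3 at 2.73 and 25.3 CPM, on 13 DOPAC UMIs. Bach2 had the smallest fold, 4.52 (4.28 to 4.77), at 340 CPM in DOPAC and 1538 CPM in Control. Foxo1, which encodes a factor that turns on Klf2, was at 289 CPM in DOPAC and 281 CPM in Control, a ratio of 1.03 (0.95 to 1.11). Of 13 effector genes, 6 were at least 2-fold higher in the same DOPAC cells, where 9.25% of all genes were. Among them Id2 was at 749 CPM in DOPAC and 165 CPM in Control, 4.53-fold higher (4.17 to 4.92), and Zeb2 at 360 and 134 CPM, 2.68-fold higher (2.43 to 2.96).

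Within checkpoint-positive cells, 8 of 9 genes were at least 2-fold lower in DOPAC, where 13.2% of all genes were. Tcf7 was at 6.56 CPM (5.21 to 8.15) in DOPAC against 57.8 CPM (47.5 to 69.7) in Control, lower by 8.82-fold (6.56 to 11.9). S1pr1 was at 4.53 CPM (3.42 to 5.89) in DOPAC against 39.4 CPM (31.0 to 49.4) in Control, lower by 8.70-fold (6.07 to 12.5). Ccr7 was at 44.3 CPM in DOPAC and 372 CPM in Control, lower by 8.39-fold (7.5 to 9.4). Klf2 was at 11.4 CPM in DOPAC and 72.0 CPM in Control, Lef1 at 32.0 and 155 CPM, Il7r at 27.4 and 75.2 CPM, Bach2 at 182 and 460 CPM, and Id3 at 1.54 and 10.5 CPM. Satb1 was at 185 CPM (178 to 193) in DOPAC against 293 CPM (269 to 318) in Control, lower by 1.58-fold (1.44 to 1.73). Of the 13 effector genes, 1 was at least 2-fold lower in these cells, beside the same 13.2% of all genes. Another 1 was at least 2-fold higher, and the share of all genes that much higher is not given for these cells. The median log2 ratio of the 13 was -0.35, beside -0.10 over all genes. In the CD8 T cells below the limit it was 0.74, beside -0.01 over all genes. By summed CPM, all 9 genes were lower in DOPAC in both groups of CD8 T cells. Thinned to 1000 UMIs, 16.7% (15 to 18.6) of DOPAC and 17.4% (11 to 25.6) of Control checkpoint-positive cells had a Satb1 UMI, with overlapping intervals. For Id3 these intervals overlapped as well, and for the other genes they did not. The 2 haemoglobin genes summed to 0.729 CPM in DOPAC and 25.2 CPM in Control checkpoint-positive cells, and to 0.629 and 1157 CPM in the other CD8 T cells.

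By summed CPM, Ccr7 stood apart from the other 8 genes in Control. It was at 372 CPM (345 to 400) in Control checkpoint-positive cells and 284 CPM (268 to 301) in the other Control CD8 T cells, 1.31-fold higher (1.19 to 1.44) in the checkpoint-positive cells. The other 8 genes were 2.41-fold (Id3) to 6.57-fold (Satb1) lower in the checkpoint-positive cells of that library. Median depths of these Control cells were 13290.0 UMIs in checkpoint-positive and 7589.5 in the others. Thinned to 1000 UMIs, 13.9% (8.17 to 21.6) and 21.2% (17.6 to 25.1) of them had a Ccr7 UMI, with overlapping intervals. The T gate set no limit on dendritic-cell RNA, and Control mature dendritic cells held 2005 CPM of Ccr7. Whether such RNA added to these values, or to the 365 CPM in Control regulatory T cells, was not tested. In DOPAC, Ccr7 was at 44.3 CPM (40.7 to 48.2) in checkpoint-positive and 45.3 CPM (39.5 to 51.8) in the other CD8 T cells, a ratio of 0.977 (0.833 to 1.15). There Tcf7 was 3.45-fold (2.57 to 4.67) and S1pr1 3.56-fold (2.49 to 5.12) lower in the checkpoint-positive cells, and Klf2 1.6-fold (1.21 to 2.1).

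**Figure D3:**
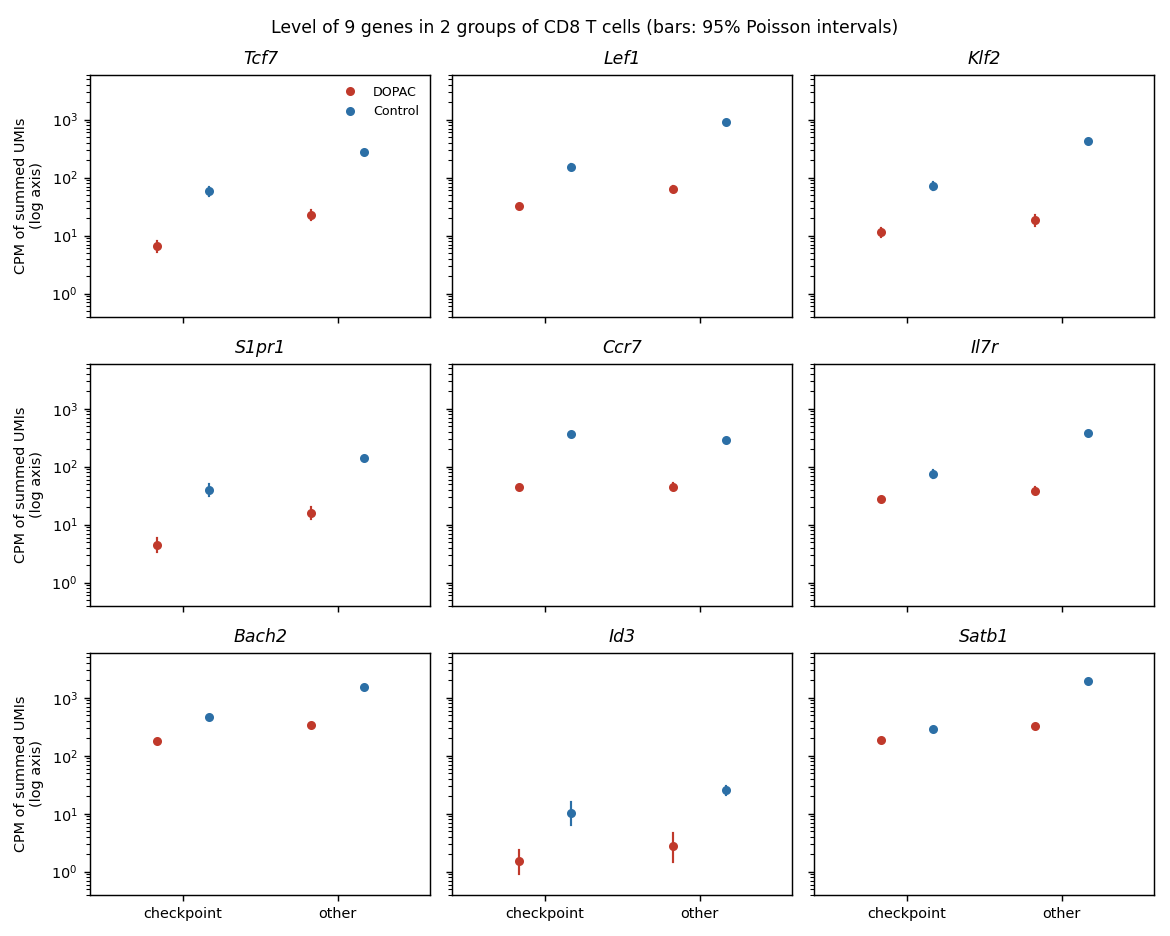
Level of the 9 genes in CD8 T cells with at least 2 checkpoint UMIs and in the other CD8 T cells, as CPM on a log axis with 95% Poisson intervals, DOPAC (red) left of Control (blue). In Control, Lef1 is at 155 CPM in checkpoint-positive and 900 CPM in the other cells, whereas Ccr7 is at 372 and 284 CPM.

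Counts per cell were compared after each cell was thinned to 1000 UMIs, which left out 2 DOPAC CD8 T cells and 1 Control CD8 T cell. UMIs of at least 3 of the 9 genes were found in 2.65% (2.07 to 3.34) of DOPAC CD8 T cells and 51.5% (47.4 to 55.6) of Control CD8 T cells, and the unthinned shares were 19.5% and 92.6%. In macrophages, set beside them as cells outside the lymphocytes, the thinned share was 0.704% in DOPAC and 0.222% in Control, at median depths of 5014.0 and 14702.0 UMIs. No member was found in 62.1% of DOPAC CD8 T cells and 9.73% of Control CD8 T cells. CD4 T cells with at least 3 members were 8.18% (3.81 to 15.0) in DOPAC and 45.3% (38.6 to 52.1) in Control, NK cells 19.8% (14.7 to 25.7) and 36.5% (32.5 to 40.5), and regulatory T cells 5.17% (1.08 to 14.4) and 13.4% (7.88 to 20.9). Among CD8 T cells below the checkpoint limit the shares were 4.78% (3.53 to 6.3) in DOPAC and 61.3% (56.8 to 65.7) in Control, and among checkpoint-positive ones 1.39% (0.883 to 2.08) and 10.4% (5.51 to 17.5).

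Lef1 and Tcf7 were also counted alone. A Lef1 UMI was found in 3.90% (3.2 to 4.72) of thinned DOPAC and 41.1% (37.1 to 45.2) of thinned Control CD8 T cells, and in 0 of 284 DOPAC macrophages, which allows a share of up to 1.06%, and 0.333% of Control macrophages. Tcf7 was found in 1.18% (0.8 to 1.66) and 18.6% (15.6 to 22.0) of these CD8 T cells in DOPAC and Control. The DOPAC CD8 T shares of Klf2 (1.40%), Il7r (2.96%) and Id3 (0.0379%) lay below the DOPAC macrophage shares of 7.39%, 10.6% and 6.34%. DOPAC macrophages themselves held 108, 129 and 79.5 CPM of these 3 RNAs, and the DOPAC CD8 T shares were not read as expression. In Control CD8 T cells the shares of Klf2 (28.5%) and Il7r (25.3%) lay above the Control macrophage shares of 8.98% and 6.1%, and that of Id3 (1.85%) lay below 4.21%.

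**Figure D4:**
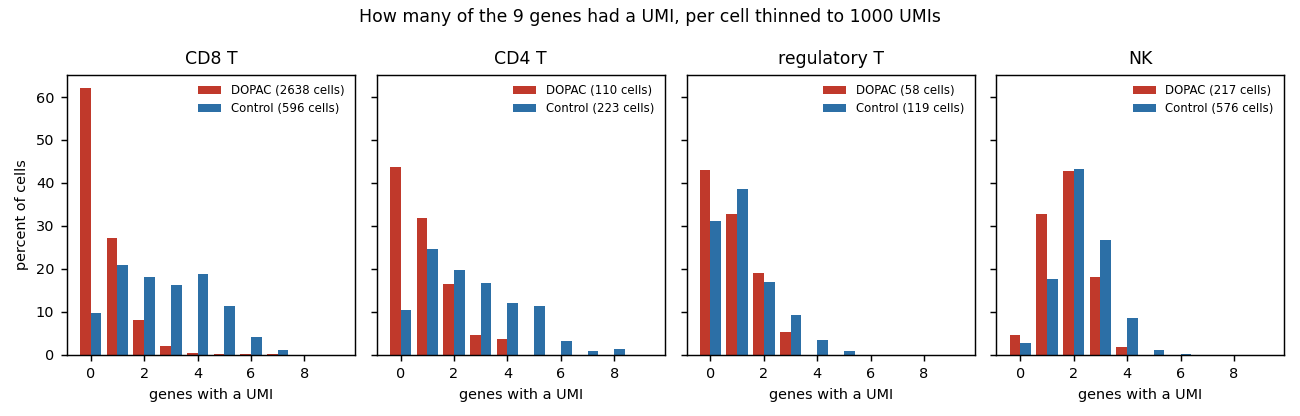
Percent of cells, thinned to 1000 UMIs, in which 0 to 9 of the genes had a UMI, for the 4 classes, with DOPAC bars (red) left of Control bars (blue). The 0 bar of CD8 T cells holds 62.1% of DOPAC and 9.73% of Control cells.

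In CD8 T cells some of the genes were also found together in the same cells. Of the 36 pairs, 13 had at least 5 cells expected with both genes in DOPAC CD8 T cells. By their intervals, 11 of these were found together more often than independent detection gives, and in Control this was 13 of 30 pairs. Every DOPAC pair counted here included Bach2 or Satb1, so the libraries were not compared over the same pairs. Tcf7 and Bach2 were together in 20 DOPAC CD8 T cells where 6.02 were expected, a ratio of 3.32 (2.03 to 5.13). Klf2 and S1pr1 were together in 35 Control CD8 T cells where 22.2 were expected, a ratio of 1.57 (1.10 to 2.19). Within the CD8 T cells below the checkpoint limit, 9 of 11 pairs, again each with Bach2 or Satb1, had an interval above 1 in DOPAC, at a median ratio of 2.04. In Control it was 1 of 30 pairs (Klf2 and Il7r), at a median ratio of 1.13. The ratio has a lower ceiling where genes are found in more cells, so these counts and medians cannot be compared between libraries. Of these thinned cells, 24.5% in DOPAC and 66.9% in Control had a Bach2 UMI, and 23.5% and 68.8% a Satb1 UMI. In CD4 T cells the interval lay above 1 for 0 of 1 pair in DOPAC and 4 of 27 in Control, and in NK cells for 0 of 7 in DOPAC and 0 of 17 in Control.

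Other genes of naive T cells were lower in DOPAC CD8 T cells as well. Of 15 naive-cell partners, 9 were at least 2-fold lower, where 12.3% of all genes were, and 0 were 2-fold higher, where 7.74% were, at a median log2 ratio of -1.34 against -0.07 over all genes. Zeb1, a zinc finger repressor, was at 562 CPM in DOPAC and 1562 CPM in Control, and Foxp1, which holds T cells quiescent, at 236 and 1071 CPM. Gpr183, an oxysterol receptor that guides cells in lymphoid tissue, was at 59.9 CPM in DOPAC and 256 CPM in Control. Klf3, a relative of Klf2, was at 8.47 CPM in DOPAC and 135 CPM in Control, 15.9-fold lower (13.3 to 19.1). Foxo1 was at 276 CPM (269 to 284) in DOPAC against 273 CPM (260 to 287) in Control, and the costimulatory receptor gene Cd27 at 117 and 116 CPM. The lower 2-fold limit fell between Myb, just past it at -1.03, and the kinase gene Jak1, just inside it at -0.96.

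Of 10 egress and homing genes, 7 had enough UMIs in CD8 T cells, 5 were at least 2-fold lower, against the same 12.3% of all genes, and 0 higher. Itgb7, an integrin chain for gut homing, was at 15.5 CPM in DOPAC and 68.2 CPM in Control, S1pr4, another sphingosine 1-phosphate receptor, at 16.9 and 48.4 CPM, and Cxcr5, a receptor that guides cells to B-cell follicles, at 0.701 and 24.5 CPM. Cd69, whose product removes S1PR1 from the cell surface, was also lower, at 65.2 CPM (61.4 to 69.1) in DOPAC against 218 CPM (206 to 230) in Control. In the interleukin-7 axis 3 of 9 genes were at least 2-fold lower, beside 12.3% of all genes, and 0 higher. The survival gene Bcl2 was at 50.8 CPM in DOPAC and 357 CPM in Control, 7.03-fold lower (6.49 to 7.61), while Il2rg, the shared receptor chain, was at 179 and 224 CPM.

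Of 13 genes known to act in effector or exhausted T cells, 4 were at least 2-fold higher in DOPAC CD8 T cells and 0 lower, where 7.74% of all genes were that much higher. They were Id2, which opposes E proteins as Id3 does, at 836 CPM in DOPAC and 284 CPM in Control, Nr4a2 at 684 and 311 CPM, the chemokine receptor gene Cxcr6 at 186 and 46.6 CPM, and Prdm1, which encodes the repressor BLIMP-1, at 39.1 and 17.8 CPM. Tox lay at the limit and was not counted, at 830 CPM in DOPAC and 415 CPM in Control, a log2 ratio of 1.00 (0.94 to 1.06). Batf was at 62.2 CPM in DOPAC and 114 CPM in Control, and Irf4 at 19.3 and 36.5 CPM, both within 2-fold. In NK cells 1 of 13 naive-cell partners, 1 of 5 egress and homing genes and 0 of 9 interleukin-7 axis genes were at least 2-fold lower, where 6.86% of all genes were. The genes called there, Slamf6 and S1pr4, had 5 and 11 DOPAC UMIs. In CD4 T cells the counts were 5 of 15, 2 of 6 and 3 of 9, where 9.96% of all genes were. The 5 partners included Dapl1 and Igfbp4, which had 0 UMIs in DOPAC and 53 and 78 in Control CD4 T cells. Of 12 effector genes in CD4 T cells, 4 were at least 2-fold higher, where 7.57% of all genes were. In regulatory T cells 3 of 13 naive-cell partners were at least 2-fold lower, where 13.1% of all genes were. A further 2 were at least 2-fold higher, and the share of all genes that much higher is not given for this class. The median log2 ratio of these partners was 0.35, against 0.10 over all genes.

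**Figure D5:**
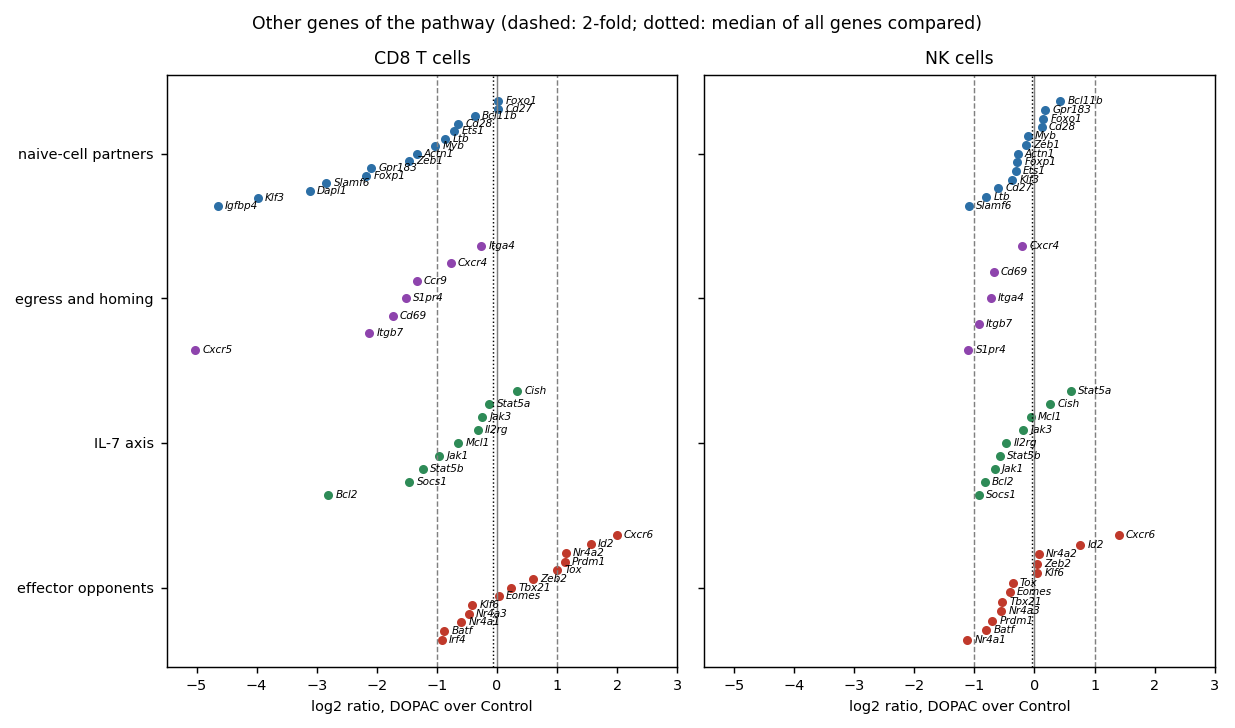
The log2 ratio of DOPAC over Control for each gene of 4 lists with at least 20 UMIs, in CD8 T cells (left) and NK cells (right), with dashed lines at 2-fold and a dotted line at the median of all genes. For CD8 T cells, 9 of 15 naive-cell partners lie left of the lower 2-fold line and 4 of 13 effector genes right of the upper one.

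Across the 4 classes of both libraries, which give 8 points that share library and depth, the pattern of each gene was compared with 4630 genes of at least 50 CPM in 1 class by Pearson correlation of log2(CPM + 5), as a description. Tcf7 was most like Klf3, at 0.956, and Lef1 most like Ssh2, at 0.960. Bach2 was most like Bcl2 (0.990), Satb1 most like Emb (0.988), Ccr7 most like Tbc1d8 (0.987), Klf2 most like Jun (0.978), Il7r most like Rhoh (0.974), S1pr1 most like Ddx6 (0.974) and Id3 most like Myh9 (0.909). Among the 9 genes, Ccr7 and Il7r were the most alike pair, at 0.93, and Tcf7 and Lef1 were at 0.90. Bach2 was least like Ccr7 and Il7r, at -0.17 with each.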

How the data were processed

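The authors deposited whole-number UMI counts for each gene in each barcode, not normalized. They used Cell Ranger 7.0.1, as the file headers give it, and GRCm38 per the submitters' processing notes. The barcode lists and gene lists deposited beside them hold names and no score. The DOPAC and Control libraries held 47769958 and 100938364 UMIs over 10777 and 9629 barcodes. Whether counting used strand is not given in the sources used here; Tcf7, Lef1 and Bach2 overlap other listed genes on the opposite strand, which had 8 and 65, 8 and 24, and 5 and 3 UMIs in DOPAC and Control CD8 T cells.

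Barcodes were kept from 500 UMIs and 200 genes upward if no more than 10% of their UMIs were mitochondrial. Doublets were scored with Scrublet (scanpy 1.11.5) at an expected 0.8% per 1000 barcodes. It marked 339 Control cells (4.01%). In DOPAC it marked 0%, so the 870 highest scores (8.62%) were removed instead. T cells needed at least 2 UMIs of Cd3d, Cd3e and Cd3g, at most 1 of a B-cell marker set and little myeloid RNA (at most 1 UMI or 0.1%). CD8 T cells needed at least 2 UMIs of Cd8a and Cd8b1 and none of Cd4 or Foxp3. CD4 T cells needed a Cd4 or Cd40lg UMI, and regulatory T cells a Foxp3 UMI, both without Cd8a or Cd8b1. NK cells, which may include ILC1, needed at least 2 UMIs of Ncr1 and Klrb1c and no CD3 UMI. Macrophages needed at least 5 UMIs of the C1q genes and mature dendritic cells at least 3 of Fscn1 and Ccl22.

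CPM was taken of summed counts (numpy 2.4.6, scipy 1.17.1). Folds were taken only with at least 50 cells per library, at least 20 UMIs together and a UMI in each library (in the alternatives, at least 10 cells), with an exact conditional binomial 95% interval; log2 ratios add 1 count to each sum. A gene past 2-fold describes these libraries. Counts over the gene lists and over all genes needed the 20 UMIs together but not a UMI in each library. Shares carry exact Clopper-Pearson intervals, and a count of 0 is bounded at 3 counts. All intervals cover counting error only. Named genes are the 9 members, and of each list up to 4 genes past 2-fold with the most UMIs. Klf3, Il2rg, Cd27, Batf, Irf4, Zeb2, and Jak1 and Tox beside the limit, were named after their values were seen. Foxo1 was named as the factor upstream of Klf2. Members, gates and lists were chosen with earlier results of these data known. Some genes, and the cell groups and the alternative that need them, are not reported here, and the CD8 T cells were divided by checkpoint UMIs alone after the data were seen. Calculations were tested on simulated data. Doublet removal, gates, thinning, scaling, filters and cell subsets were varied.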

Additional observations from a re-analysis of the deposited data

Results flagged for a closer look

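Myb, which encodes a transcription factor of naive-cell partners, differed in direction between classes: its log2 ratio of DOPAC over Control was -1.03 in CD8 T cells, at 51.0 and 104 CPM in DOPAC and Control, and 1.11 in regulatory T cells, at 79.0 and 38.1 CPM. The regulatory T value rested on 19 DOPAC UMIs. The difference between the classes was not tested.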

How the results depend on the processing

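No paired analysis was possible because each group is 1 library, and the shared replicate number 1 marks a single sample per group. For the same reason no replicate could be left out. In CD8 T cells all 9 genes stayed at least 2-fold lower in DOPAC under each of the 9 alternatives in which all 9 could be compared. When cells were thinned to 1000 UMIs before gating, which left 369 DOPAC and 44 Control CD8 T cells, fewer genes had 20 UMIs: 5 of 5 compared were at least 2-fold lower in CD8 T cells, 4 of 4 in CD4 T cells (40 DOPAC and 34 Control cells) and 1 of 4 in NK cells, against 9, 8 and 3, and regulatory T cells gave no value. Thinning moved Lef1 and Bach2 in CD4 T cells to -3.11 and -1.30, against -2.06 and -2.04, and Klf2 and Il7r in CD8 T cells to -5.81 and -2.53, against -4.57 and -3.19. With likely doublets kept, 2 of 8 genes were lower in regulatory T cells, against 4. With stricter gates, Tcf7 in NK cells passed 2-fold, at -1.01, and 21 DOPAC regulatory T cells were left. In regulatory T cells Lef1 passed 2-fold, at -1.24, with equal weight per cell. A minimum of 1 UMI put 20.9% of all genes at least 2-fold lower in CD8 T cells and 7.84% in regulatory T cells, against 12.3% and 13.1%. In CD8 T cells the median of naive-cell partners was -0.85 thinned and that of egress and homing genes -1.87 with doublets kept, against -1.34 and -1.52. The cause of these shifts was not tested. The share of cells with at least 3 members was 6.20% (2000 UMIs) and 19.5% (unthinned) in DOPAC and 70.9% and 92.6% in Control CD8 T cells, and 18.9% and 25.0% in DOPAC and 65.3% and 94.2% in Control CD4 T cells. The wider NK gate and the exclusion of cells with haemoglobin RNA were chosen after seeing the data. The single library per group limits every value, and the counts of DOPAC regulatory T cells come from 58 cells.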
